A study of Caenorhabditis elegans with 22 samples.

Results

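The engulfment genes of Caenorhabditis elegans encode the proteins with which a living cell recognises, surrounds and internalises a dying neighbour. The 9 genes described here are ced-1, ced-2, ced-5, ced-6, ced-7, ced-10, ced-12, psr-1 and ttr-52. They were found by gene symbol, as every probe set annotated to 1 of them and to no other gene, and the array carried 16 such probe sets among 22548 that are not controls. Of these probe sets 14 passed the filter on low values, which required the median of the whole table (3.68 on the log2 scale) on at least 3 of the 22 arrays, and they read 8 of the 9 genes. The gene that did not pass was ttr-52.

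In the worm, corpses are cleared through a pair of partly parallel pathways. In the first, the secreted protein TTR-52 binds phosphatidylserine on the dying cell and bridges it to the receptor CED-1, CED-7 is an ABC transporter needed in this pathway, and CED-6 is the adaptor that carries the signal of CED-1 inwards. In the second, CED-2 (a Crk-type adaptor), CED-5 (a DOCK180-type exchange factor) and CED-12 (an ELMO-type partner of CED-5) activate CED-10, the Rac GTPase that rearranges the actin cytoskeleton, and PSR-1, a protein that can bind phosphatidylserine, acts through CED-5 and CED-12. In adult hermaphrodites many of the dying cells are germ cells, which the sheath cells of the gonad engulf. CED-4 acts earlier, as the adaptor that activates the caspase of the death programme.

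The study used whole young adult hermaphrodites in the Bristol N2 background. There were 3 arrays each of isp-1(qm150), a complex III mutant, of nuo-6(qm200), a complex I mutant, of wild type on 0.1 mM paraquat, a compound that makes superoxide, of ced-4(n1162), and of the double mutants isp-1(qm150) ced-4(n1162) and nuo-6(qm200);ced-4(n1162). Untreated wild type had 4 arrays. The labels name biological replicates but not separate cultures, so p-values measure the spread between these samples, which may be technical.

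The deposited values are log2 expression, and differences below are on this scale. Each carries its standard error (SE) from limma, and adjusted p-values are limma's after Benjamini-Hochberg adjustment over 12639 tested probe sets. A gene was called at an adjusted p under 0.05 through the probe set whose mean over all arrays was highest, and comparisons that share arrays are not independent. Levels of different genes are not compared, because an array does not scale probe sets to each other. In RNA of whole worms, fewer cells of a type and less RNA per cell cannot be told apart.

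Some arrays stood apart. isp-1 replicate 1 correlated at 0.993 with nuo-6 replicate 1, more closely than with its own group (0.967 to 0.976), and isp-1 ced-4 replicate 1 was as close to isp-1 replicate 3 (0.973) as to its own group (0.963 to 0.974). Wild type had the largest median SD between arrays, 0.298, and ced-4 the smallest, 0.124. The ced-4 transcript fell by 1.89 in ced-4 against wild type, by 1.87 in the isp-1 double mutant relative to isp-1 and by 2.50 in the nuo-6 double mutant relative to nuo-6. The isp-1 and nuo-6 transcripts were not lower in their own mutants (differences of 0.04 and 0.28), so they do not check those labels.

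By the probe sets of highest mean, most engulfment genes stood highest in isp-1 ced-4. Of the 8 tested genes, 7 had their highest group mean there: ced-1, ced-2, ced-5, ced-6, ced-7, ced-10 and ced-12. The other tested probe sets of ced-2 and ced-6 had theirs in paraquat, and that of ced-10 in nuo-6 ced-4. The share of all tested genes that peak in isp-1 ced-4 was not counted. Against wild type, ced-2, ced-5, ced-6, ced-7, ced-10 and ced-12 rose in isp-1 ced-4 by 0.50 to 0.75 and psr-1 fell. The isp-1 mutation alone gave 1 called gene, ced-10, and ced-4 alone gave none. Between isp-1 ced-4 and wild type, 29.3% of all 9647 tested genes were called higher and 22.5% lower, so counts are read against a broad change. The median difference of the 8 genes there was 0.61, against 0.11 over all tested genes.

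**Figure D1:**
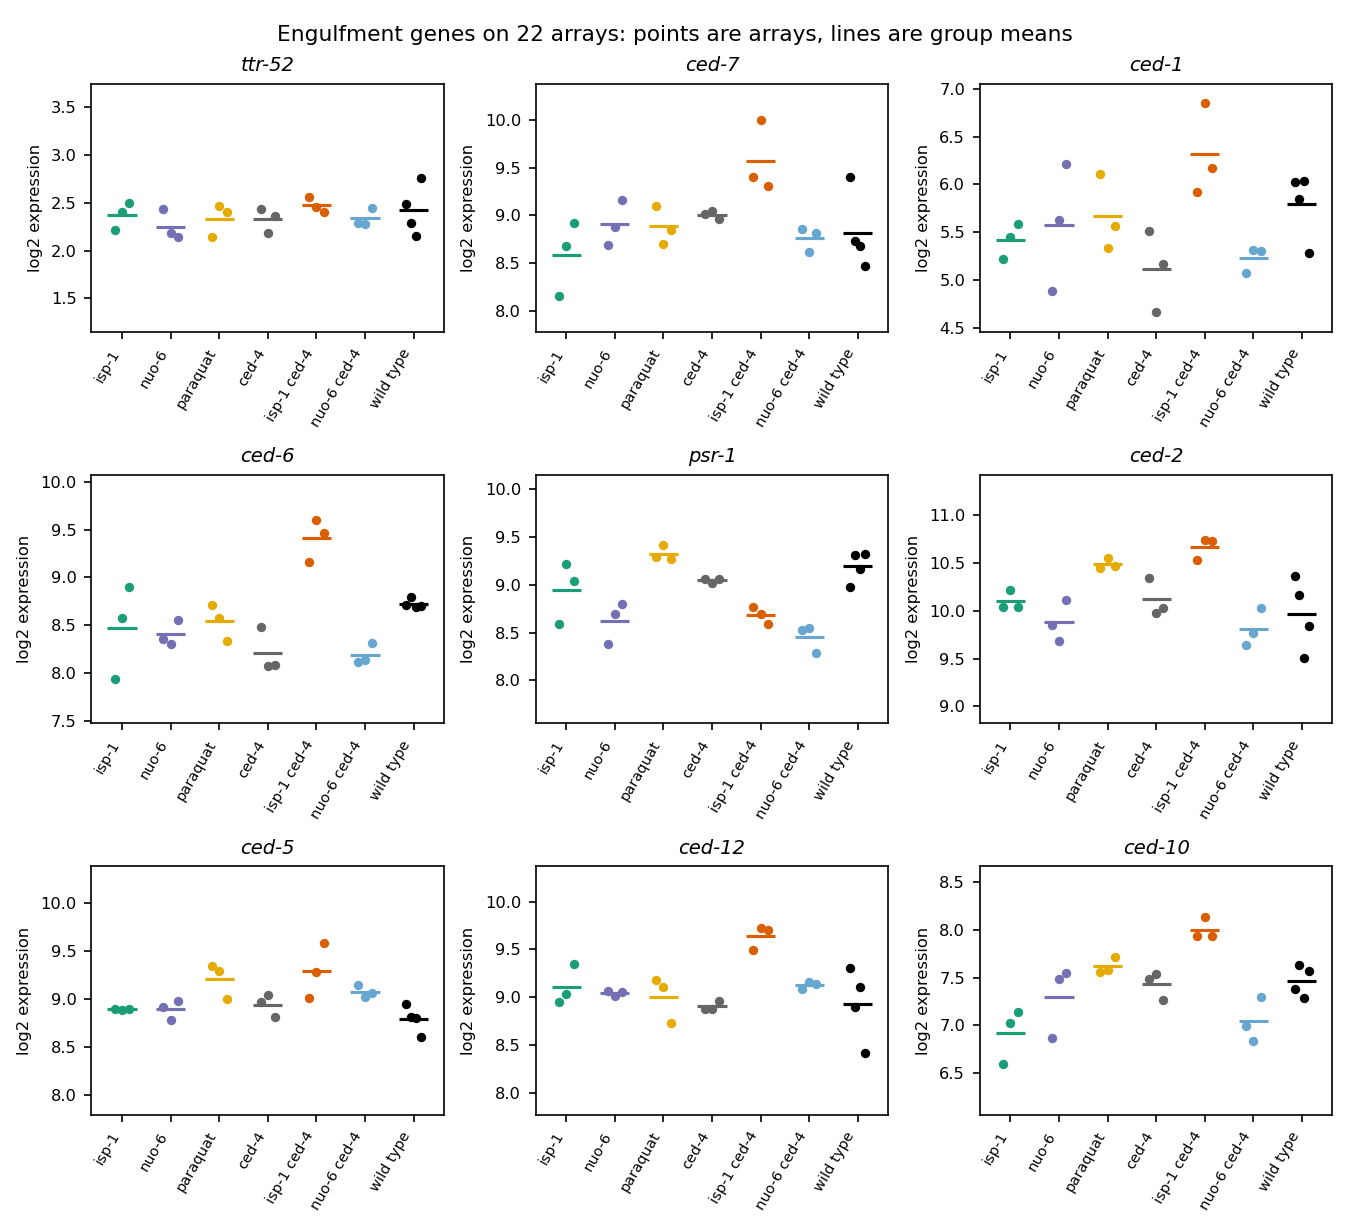
Log2 expression (y axis) of each engulfment gene on every array, by group (x axis), with points for arrays and lines for group means. Each gene is shown by its probe set of highest mean. The psr-1 panel peaks in paraquat, the panels of the other tested genes peak in isp-1 ced-4, and ttr-52 stays between 2.14 and 2.75 on all arrays.

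In the receptor pathway, the bridging gene ttr-52 (F11F1.7) lay between 2.14 and 2.75 on all 22 arrays, and no array reached the filter. Its level was below the filter in every group, and no difference could be detected there. When the filter was dropped, no comparison gave it a p under 0.05 even before adjustment.

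The adaptor gene ced-6 (F56D2.7) read 9.16, 9.60 and 9.46 on the isp-1 ced-4 arrays. It read 7.94, 8.58 and 8.90 on the isp-1 arrays, 8.48, 8.07 and 8.08 on the ced-4 arrays, and 8.71, 8.79, 8.69 and 8.70 on the wild type arrays. All 3 isp-1 ced-4 arrays were above every other array of the study. ced-6 rose in isp-1 ced-4 by 0.94 over isp-1 (SE 0.19, adjusted p = 0.00159), a 1.92-fold difference. It rose by 1.20 against ced-4 (SE 0.19, adjusted p = 7.4e-05) and by 0.68 against wild type (SE 0.18, adjusted p = 0.00421). The call against isp-1 ended when that pair of groups was fitted alone.

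In nuo-6 ced-4, ced-6 read 8.12, 8.13 and 8.32, below all 4 wild type arrays. It fell by 0.54 there against wild type (SE 0.18, adjusted p = 0.0293). That call ended without wild type replicate 2 (-0.51), nuo-6 ced-4 replicate 1 (-0.50) or replicate 2 (-0.51). On the nuo-6 arrays ced-6 read 8.36, 8.31 and 8.55, and on the paraquat arrays 8.71, 8.58 and 8.33, with no call against wild type in either group.

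The receptor gene ced-1 (Y47H9C.4) read 5.92, 6.85 and 6.18 on the isp-1 ced-4 arrays. It read 5.22, 5.45 and 5.58 on the isp-1 arrays, 5.51, 4.66 and 5.17 on the ced-4 arrays, and 6.03, 5.84, 6.04 and 5.28 on the wild type arrays. The isp-1 ced-4 arrays lay above both single mutants but overlapped wild type. ced-1 rose by 1.20 against ced-4 (SE 0.32, adjusted p = 0.00427) and by 0.90 against isp-1 (SE 0.32, adjusted p = 0.0366). The difference of 0.52 from wild type was not called (adjusted p = 0.153). The call against isp-1 ended without isp-1 replicate 1 (0.80) or replicate 2 (0.91), and without isp-1 ced-4 replicate 2 (0.63) or replicate 3 (0.97).

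The transporter gene ced-7 (C48B4.4) read 9.41, 9.9985 and 9.30 on the isp-1 ced-4 arrays. It read 8.16, 8.68 and 8.92 on the isp-1 arrays, and 9.40, 8.73, 8.68 and 8.47 on the wild type arrays. The isp-1 ced-4 arrays were above all isp-1 arrays, while wild type replicate 1 lay within their range. ced-7 rose by 0.98 against isp-1 (SE 0.23, adjusted p = 0.00417) and by 0.75 against wild type (SE 0.22, adjusted p = 0.00861). Both calls ended when the groups compared were fitted alone, and the call against wild type without isp-1 ced-4 replicate 2, at 0.53. The other probe set of ced-7 gave 0.36 against isp-1 (adjusted p = 0.166) and 0.42 against wild type (adjusted p = 0.059), neither called. Against ced-4, with arrays at 9.02, 9.04 and 8.96, the difference of 0.56 was not called (adjusted p = 0.0523), but without isp-1 ced-4 replicate 3 it was, at 0.69.

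In the Rac pathway, ced-10 (C09G12.8), the GTPase itself, read 7.94, 8.13 and 7.94 on the isp-1 ced-4 arrays. It read 6.60, 7.03 and 7.14 on the isp-1 arrays, 7.49, 7.54 and 7.27 on the ced-4 arrays, and 7.38, 7.63, 7.29 and 7.57 on the wild type arrays. The single isp-1 mutant lay below wild type and the double mutant above every other array. ced-10 fell by 0.54 in isp-1 against wild type (SE 0.17, adjusted p = 0.0263), where genes called in either direction were 23.3% of those tested. That fall was not called without isp-1 replicate 1 (-0.38), wild type replicate 2 (-0.49) or wild type replicate 4 (-0.51). In isp-1 ced-4 it rose by 1.08 against isp-1 (SE 0.18, adjusted p = 0.000485), a 2.11-fold difference. It also rose by 0.57 against ced-4 (SE 0.18, adjusted p = 0.0129) and by 0.54 against wild type (SE 0.17, adjusted p = 0.0133). Without isp-1 ced-4 replicate 2 the last pair were 0.51 and 0.47 and not called, nor was the difference from ced-4 without ced-4 replicate 3 (0.49). With cyclic loess between arrays they were 0.36 and 0.33 and not called.

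The partner gene ced-12 (Y106G6E.5) read 9.49, 9.72 and 9.70 on the isp-1 ced-4 arrays. It read 8.95, 9.03 and 9.35 on the isp-1 arrays, 8.87, 8.88 and 8.96 on the ced-4 arrays, and 9.31, 8.90, 9.10 and 8.42 on the wild type arrays. As with ced-6 and ced-10, the isp-1 ced-4 arrays were above the other 19 arrays of the study. ced-12 rose by 0.71 against wild type (SE 0.16, adjusted p = 0.00175), by 0.74 against ced-4 (SE 0.18, adjusted p = 0.00213) and by 0.53 against isp-1 (SE 0.18, adjusted p = 0.0277). The last call ended without isp-1 replicate 1 (0.45) or replicate 2 (0.49), and without isp-1 ced-4 replicate 2 (0.49) or replicate 3 (0.50), and with cyclic loess (0.41). Of all tested genes, 3.97% had their 3 isp-1 ced-4 arrays above the other 19, against 3 of the 8 engulfment genes, a count made after the values were seen.

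The adaptor gene ced-2 (Y41D4B.13) read 10.53, 10.74 and 10.73 on the isp-1 ced-4 arrays and 10.45, 10.55 and 10.47 on the paraquat arrays. It read 10.04, 10.22 and 10.04 on the isp-1 arrays, 10.34, 9.98 and 10.03 on the ced-4 arrays, and 10.37, 10.16, 9.50 and 9.85 on the wild type arrays. The isp-1 ced-4 and the paraquat arrays were all above all wild type arrays. ced-2 rose by 0.70 in isp-1 ced-4 against wild type (SE 0.17, adjusted p = 0.00248) and by 0.52 in paraquat against wild type (SE 0.17, adjusted p = 0.0192). Its rises of 0.57 against isp-1 (SE 0.18, adjusted p = 0.023) and 0.55 against ced-4 (SE 0.18, adjusted p = 0.0177) were not called without isp-1 ced-4 replicate 2 (0.53 and 0.51) or replicate 3 (0.53 and 0.51). Nor was the rise against isp-1 called without isp-1 replicate 1 (0.54) or replicate 3 (0.54), or the rise against ced-4 without ced-4 replicate 2 (0.48) or replicate 3 (0.50), or with cyclic loess (0.34).

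The exchange factor gene ced-5 (C02F4.1) read 9.01, 9.28 and 9.58 on the isp-1 ced-4 arrays and 9.35, 9.29 and 8.995 on the paraquat arrays. It read 8.90, 8.88 and 8.90 on the isp-1 arrays, 8.96, 9.04 and 8.81 on the ced-4 arrays, and 8.95, 8.81, 8.81 and 8.60 on the wild type arrays. Both groups were above all wild type arrays, by little at their lowest array. ced-5 rose by 0.50 in isp-1 ced-4 against wild type (SE 0.13, adjusted p = 0.00358) and by 0.42 in paraquat against wild type (SE 0.13, adjusted p = 0.0131). Both calls ended when the groups compared were fitted alone. The rise of 0.40 against isp-1 (SE 0.14, adjusted p = 0.0326) was not called in 5 of the 6 fits that each left out an array of these groups, in which it was 0.26 to 0.41. It stayed called without isp-1 ced-4 replicate 1. The rise of 0.35 against ced-4 (SE 0.14, adjusted p = 0.039) was not called without ced-4 replicate 1 (0.37) or replicate 3 (0.29), or without isp-1 ced-4 replicate 2 (0.36) or replicate 3 (0.21). With cyclic loess it was 0.12 and with median centring 0.30, neither called, and the rise against isp-1 was 0.28 with cyclic loess and not called.

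psr-1 (F29B9.4) ran the other way. It read 8.76, 8.69 and 8.59 on the isp-1 ced-4 arrays, 8.53, 8.55 and 8.28 on the nuo-6 ced-4 arrays, and 8.38, 8.69 and 8.80 on the nuo-6 arrays, against 8.98, 9.31, 9.16 and 9.33 on the wild type arrays. All 9 arrays of these mutants were below all 4 of wild type. psr-1 fell by 0.74 in nuo-6 ced-4 (SE 0.14, adjusted p = 0.000619), by 0.57 in nuo-6 (SE 0.14, adjusted p = 0.00519) and by 0.51 in isp-1 ced-4 (SE 0.14, adjusted p = 0.00591), each against wild type. Of all tested genes, 16.2% were called lower in nuo-6 ced-4 and 22.5% in isp-1 ced-4, and 33.9% in either direction in nuo-6. In isp-1, at 8.59, 9.21 and 9.04, the difference of -0.25 was not called (adjusted p = 0.222), and nuo-6 against isp-1, at -0.32, was not called either (adjusted p = 0.448), in a comparison that called 0.0104% of tested genes. Without isp-1 replicate 1 that difference was called, at -0.50, and so was that of isp-1 ced-4 over isp-1, at -0.45 (with all arrays -0.26, adjusted p = 0.189). On the paraquat arrays, at 9.29, 9.42 and 9.27, it overlapped wild type, and the difference of 0.13 was not called (adjusted p = 0.496). In ced-4, at 9.06, 9.02 and 9.06, psr-1 overlapped wild type, and in nuo-6 ced-4 it fell by 0.59 against ced-4 (SE 0.15, adjusted p = 0.0109). That call ended without nuo-6 ced-4 replicate 3, at -0.51. The fall in nuo-6 was not called when nuo-6 and wild type were fitted alone.

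Ranked by group mean, neighbouring groups overlapped for most genes. The isp-1 ced-4 arrays were clear of the group next below them for ced-6 (wild type), ced-7 (ced-4), ced-10 (paraquat) and ced-12 (nuo-6 ced-4). For ced-7 they still overlapped wild type, which ranked lower by its mean. Such gaps were not counted over all tested genes. Nor were the separations between pairs of groups that are given for single genes, so how common they are is not known. For ced-1, ced-2 and ced-5 they overlapped the group next below, and for ced-2 a gap lay between the paraquat and the ced-4 arrays.

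Counted over the 8 genes, isp-1 ced-4 had 7 higher and none lower against isp-1, where 15.5% of tested genes were called higher, and 6 higher and none lower against ced-4, where 29.5% were called higher. The median differences of the 8 genes were 0.73 and 0.57, against 0.02 and 0.14 over all tested genes. These counts rest on the probe set of highest mean. The other tested probe sets had means in isp-1 ced-4 and isp-1 of 9.86 and 9.77 (ced-2), 8.12 and 8.11 (ced-6) and 3.80 and 3.63 (ced-10). Those of ced-1 (5.96 and 5.36), ced-5 (8.99 and 8.12) and ced-7 (9.10 and 8.74) differed more. The calls of ced-1, ced-5, ced-6, ced-7 and ced-12 against isp-1 ended when that pair was fitted alone. With cyclic loess the counts were 5 higher and 1 lower against wild type, 5 higher and none lower against isp-1, and 3 higher and 1 lower against ced-4, with medians of 0.43, 0.63 and 0.35. Against isp-1 there were 3 higher without isp-1 ced-4 replicate 2 or replicate 3, 4 higher without isp-1 replicate 2, and 3 higher and 1 lower (psr-1) without isp-1 replicate 1. Against ced-4 there were 3 higher without ced-4 replicate 3 or isp-1 ced-4 replicate 2. Against wild type the calls in either direction ran from 5 to 7. Without the first replicates of wild type, isp-1 and isp-1 ced-4 together, there were 6 higher and 1 lower against wild type, 6 higher and 1 lower against isp-1, and 7 higher and 1 lower against ced-4, the lower gene being psr-1 in each.

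**Figure D2:**
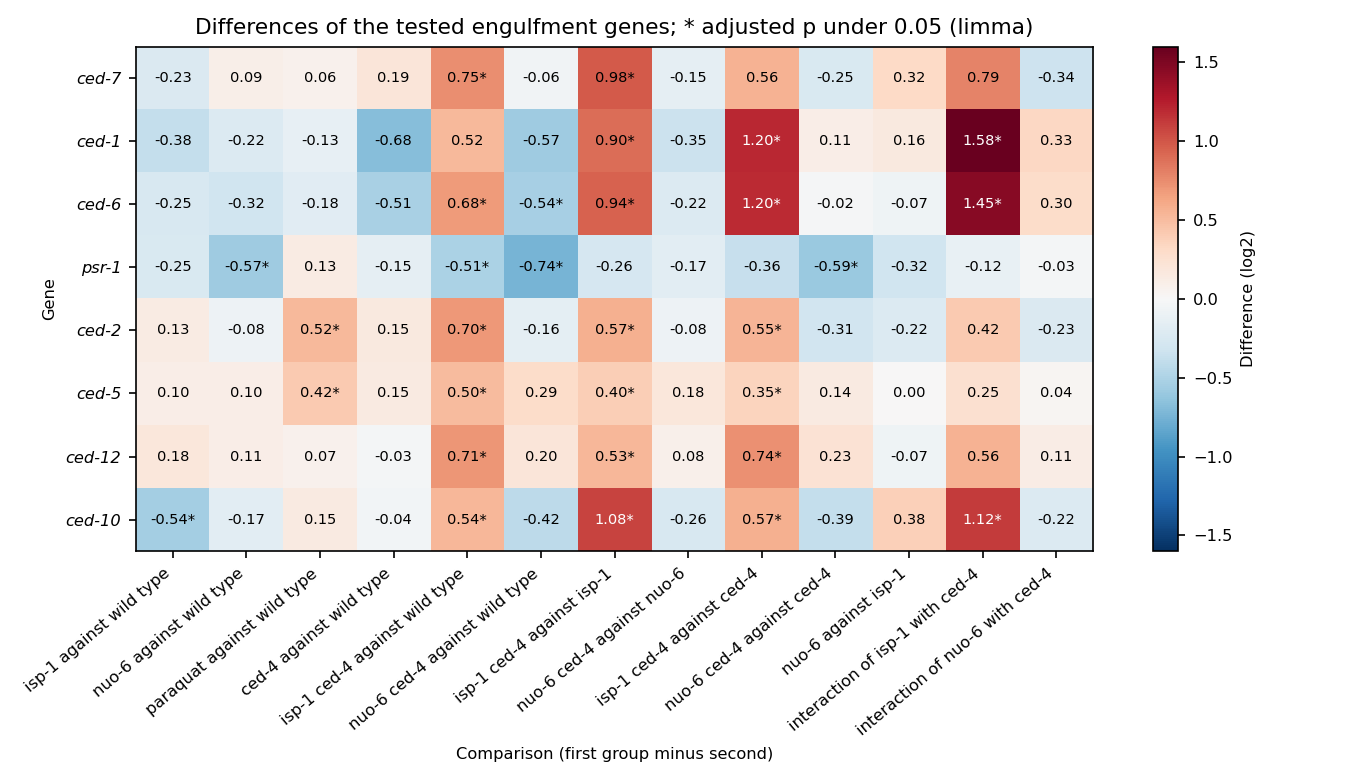
Differences in log2 expression of the tested engulfment genes (rows) in the comparisons shown (columns), as colour and printed value, with red for a higher and blue for a lower value in the group named before the word against, and a star at an adjusted p under 0.05. The comparison of the double mutants with each other and the difference of the ced-4 effects are not shown. The columns of isp-1 ced-4 and of its interaction hold the deepest reds, up to 1.58 for ced-1, and the psr-1 row is blue in all of them.

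In the nuo-6 double mutant no engulfment gene was called higher at the main setting. ced-5 was called higher there with cyclic loess, by 0.38 against wild type and by 0.35 over nuo-6, and against wild type with the 3 first replicates left out (0.34). Against nuo-6 no engulfment gene was called in nuo-6 ced-4 by its probe set of highest mean. None of these had an unadjusted p under 0.05, where 28.8% of tested genes were called. The other probe sets of ced-2 and ced-6 were called lower there. Their means were 9.22 and 7.09 in nuo-6 ced-4, against 9.75 and 8.11 in nuo-6. That ced-2 call ended with cyclic loess (-0.38). Without nuo-6 replicate 1, ced-10 was called there, at -0.47. Against wild type the called genes were ced-6 and psr-1, both lower, with 16.2% of tested genes called lower. ced-10 was called lower there too without wild type replicate 3 (-0.48) or nuo-6 ced-4 replicate 3 (-0.55). Against ced-4, psr-1 was called, with 8.69% called lower.

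The test of the difference itself was the interaction, the effect of isp-1 in a ced-4 background minus its effect with ced-4 intact. It was 1.58 for ced-1 (SE 0.43, adjusted p = 0.0182), 1.45 for ced-6 (SE 0.26, adjusted p = 0.000925) and 1.12 for ced-10 (SE 0.25, adjusted p = 0.00461). These 3 of 8 genes compare with 7.74% of tested genes called upward in the interaction. With these probe sets the calls of ced-6 and ced-10 held in every alternative tried, but the other probe sets did not give them: the interaction there was 0.56 for ced-6 (adjusted p = 0.205), called only with the 3 first replicates left out (0.90), 0.02 for ced-10 (adjusted p = 0.967) and 0.86 for ced-1 (adjusted p = 0.136). Each of these calls therefore rests on 1 probe set. That of ced-1 ended without ced-4 replicate 2 (1.35) or isp-1 ced-4 replicate 2 (1.31). The same interaction for nuo-6 called no engulfment gene, with none at an unadjusted p under 0.05 and 11.4% of tested genes called.

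The effect of ced-4 in isp-1 minus its effect in nuo-6, a comparison added after the data were seen, was called upward for ced-1, ced-6, ced-7 and ced-10, with 18.8% of tested genes called upward. It was 1.25 for ced-1 (SE 0.45, adjusted p = 0.0358), a call that ended in 8 of the fits that left out 1 array, 1.15 for ced-6 (SE 0.27, adjusted p = 0.00338), 1.13 for ced-7 (adjusted p = 0.013) and 1.34 for ced-10 (SE 0.25, adjusted p = 8e-04). The other probe sets gave 1.09 for ced-1 (adjusted p = 0.0431) and 1.03 for ced-6 (adjusted p = 0.0157), both called, and 0.44 for ced-7 (adjusted p = 0.214) and -0.11 for ced-10 (adjusted p = 0.746), not called. Set directly against nuo-6 ced-4, isp-1 ced-4 had 6 of the 8 genes higher and none lower, with 31.5% of tested genes called higher. Without isp-1 ced-4 replicate 2 that count was 3.

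Paraquat called 2 engulfment genes against wild type, ced-2 and ced-5, both higher, where 25.9% of tested genes were called higher. The median difference of the 8 genes was 0.10, the same as over all tested genes. The ced-2 call ended without wild type replicate 3 (0.37) or paraquat replicate 2 (0.49), and the ced-5 call without paraquat replicate 1 (0.35) or replicate 2 (0.38). With cyclic loess neither was called, at 0.38 and 0.22. In nuo-6 the called gene was psr-1, with 33.9% of tested genes called in either direction. In ced-4 no gene was called, with 14.9% of tested genes called, and ced-1 (-0.68, adjusted p = 0.128) and ced-6 (-0.51, adjusted p = 0.0597) had an unadjusted p under 0.05. Without ced-4 replicate 1, ced-6 was called there, at -0.65.

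Several genes are read by more than 1 probe set, and these did not always move together. Probe sets whose names end in _s_at can bind several transcripts, and those ending in _x_at can bind unrelated ones. Over the 22 arrays the pair correlated at 0.67 for ced-1, 0.68 for ced-7, 0.60 for ced-5, 0.43 for ced-2 and 0.35 for ced-6, and at 0.00 for ced-10, whose other tested probe set is of the _x_at kind and lies near the filter. They differed in their calls in 2 (ced-1) to 7 (ced-10) of 15 comparisons, and in 5 for ced-6.

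For ced-6 the _s_at probe set read 7.90, 8.26 and 8.18 on the isp-1 ced-4 arrays and 8.24, 8.16 and 7.93 on the isp-1 arrays, a difference of 0.00 (adjusted p = 0.993) where the other, 1 of the _at kind, gave 0.94. On the paraquat arrays it read 8.69, 8.65 and 8.47, against 7.17, 7.92, 8.23 and 7.42 on the wild type arrays, and it rose by 0.92 (SE 0.21, adjusted p = 0.00156) where the _at probe set gave -0.18 (adjusted p = 0.443). It fell by 1.03 between nuo-6 ced-4 and nuo-6 (adjusted p = 0.00209). The rise of ced-6 in isp-1 ced-4 over isp-1 therefore rests on 1 of its probe sets, and its call in paraquat on the other.

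For ced-2 the paraquat rise was larger with the _s_at probe set, which read 10.41, 10.21 and 10.11 on the paraquat arrays, against 9.10, 9.60, 9.64 and 9.30 on the wild type arrays. The difference was 0.84 (SE 0.15, adjusted p = 0.000289), and it held in every alternative tried. Against isp-1 that probe set gave 0.09 in isp-1 ced-4. For ced-5, the _at probe set, which is the one of lower mean, read 8.72, 9.24 and 9.02 on the isp-1 ced-4 arrays and 8.21, 8.22 and 7.78 on the paraquat arrays, against 8.55, 8.32, 7.9999 and 7.70 on the wild type arrays. It was higher in isp-1 ced-4, with arrays that do not overlap, but at -0.07 in paraquat it did not show the rise of the other probe set.

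**Figure D3:**
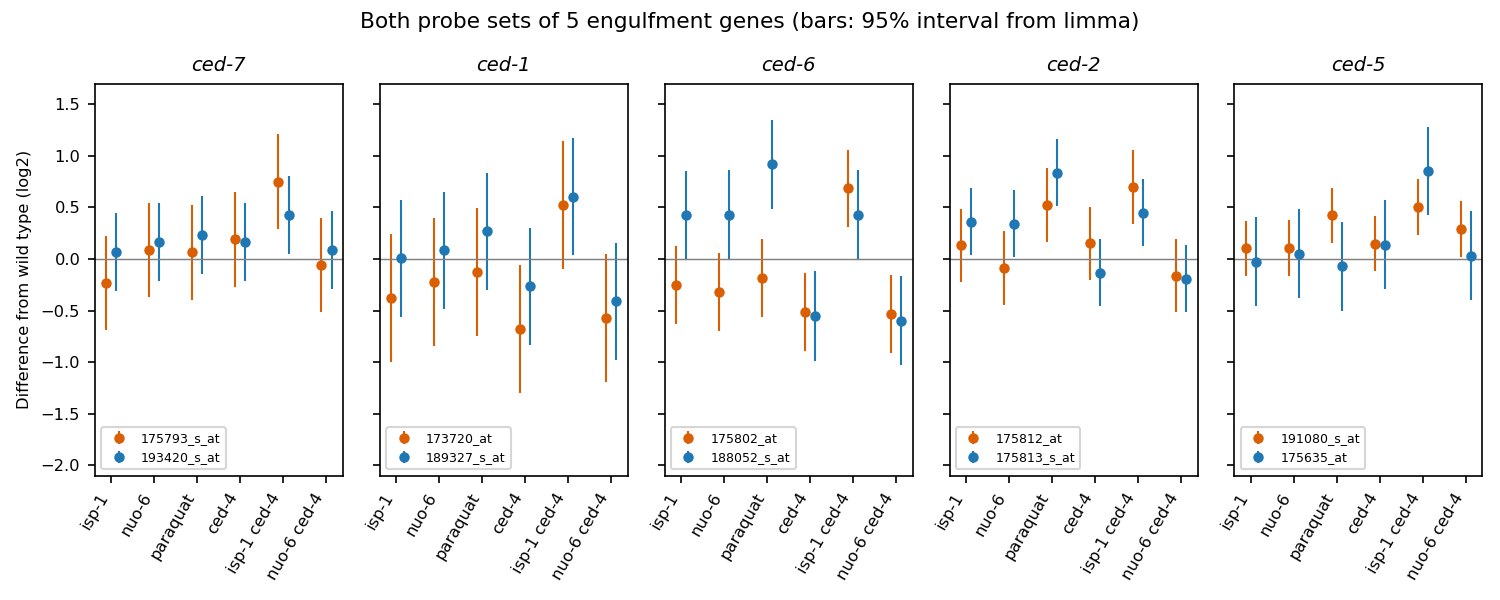
Difference from wild type in log2 expression (y axis) in each group (x axis) for both tested probe sets of ced-7, ced-1, ced-6, ced-2 and ced-5, with points for the limma estimate and bars for its 95% interval. In paraquat the ced-6 probe sets lie at 0.92 and -0.18.

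Other genes of corpse clearance were read from 3 lists. For genes that expose or remove the phosphatidylserine signal, 3 of 6 were called higher and 1 lower in isp-1 ced-4 against wild type, with a median of 0.52, where 29.3% of all tested genes were higher and 22.5% lower, with a median of 0.11. ced-8, an Xkr8-type factor for phosphatidylserine exposure, had a mean of 3.90 in isp-1 ced-4 and 4.38 in paraquat, against 2.76 in wild type. It passed the filter only through groups where it is high, so its calls were favoured by the filter, and with wild type below the filter the size of its differences, 1.14 and 1.62, is uncertain. tat-1, the flippase that keeps phosphatidylserine inside, rose by 0.86 (SE 0.21, adjusted p = 0.00238), and scrm-1, a scramblase, also by 0.86 (SE 0.19, adjusted p = 0.00132). scrm-1 had a mean of 3.60 in wild type, below the filter, and 4.47 in isp-1 ced-4, so the size of its rise is uncertain too. TAT-1 acts against phosphatidylserine exposure, which CED-8 and SCRM-1 promote. The gene that fell was nrf-5, which encodes a secreted lipid-binding protein, by 0.52 (adjusted p = 0.00558). In paraquat ced-8 was the 1 of 6 called higher, where 25.9% of all tested genes were called higher.

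Of the other signalling partners of engulfment, 11 of 13 were tested. In isp-1 ced-4 7 rose and 1 fell against wild type (median 0.50, against 0.11 over all tested genes), and in paraquat 7 rose and none fell (median 0.53, against 0.10 over all tested genes, of which 25.9% were called higher). The gene that fell was pat-2, an integrin alpha subunit, by 0.73 (adjusted p = 0.0199). srgp-1, a GTPase-activating protein that restrains CED-10, rose by 0.98 in isp-1 ced-4 (SE 0.27, adjusted p = 0.00632) and by 1.07 in paraquat (SE 0.27, adjusted p = 0.00401), and fell by 1.11 in nuo-6 ced-4 (SE 0.27, adjusted p = 0.00458), all against wild type. abi-1, an Abl interactor, rose by 0.77 in paraquat (SE 0.11, adjusted p = 3.15e-05) and by 0.42 in isp-1 ced-4 (adjusted p = 0.00527). ina-1, an integrin alpha subunit that serves as an engulfment receptor, rose by 1.24 in ced-4 (SE 0.17, adjusted p = 4.53e-05) and by 0.72 in paraquat (SE 0.17, adjusted p = 0.00259).

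Of the phagosome maturation genes, which act after engulfment, 20 of 21 were tested. In isp-1 ced-4 12 rose and 1 fell against wild type (median 0.59), where 29.3% of all tested genes were called higher, and in paraquat 8 rose and none fell (median 0.37), where 25.9% were. In nuo-6 ced-4 8 fell (median -0.17, against -0.07 over all tested genes, of which 16.2% were called lower) and 1 rose, rab-14, by 0.54 (adjusted p = 0.041). rab-7, the GTPase of late phagosomes, rose by 1.42 in isp-1 ced-4 (SE 0.24, adjusted p = 8.63e-05), by 1.43 in paraquat (SE 0.24, adjusted p = 9.27e-05) and by 0.83 in nuo-6 (adjusted p = 0.0117). It fell by 1.38 in nuo-6 ced-4 (SE 0.24, adjusted p = 0.000222) and by 0.83 in ced-4 (adjusted p = 0.0227), each against wild type. dyn-1, the dynamin of phagosome closure and maturation, rose by 1.32 in isp-1 ced-4 (SE 0.25, adjusted p = 0.00033) and by 1.33 in paraquat (SE 0.25, adjusted p = 0.000347). rab-5, the GTPase of early phagosomes, rose by 0.59 in paraquat (adjusted p = 0.00262) and fell by 0.68 in nuo-6 ced-4 (adjusted p = 0.00133). The gene that fell in isp-1 ced-4 was nuc-1, the DNase II that digests corpse DNA, by 1.34 (SE 0.18, adjusted p = 1.16e-05). The other genes named from these lists were those called in the most comparisons of these same data. Their differences and p-values were therefore favoured by that choice. nuc-1, nrf-5, pat-2 and rab-14 are also named after their values were seen.

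**Figure D4:**
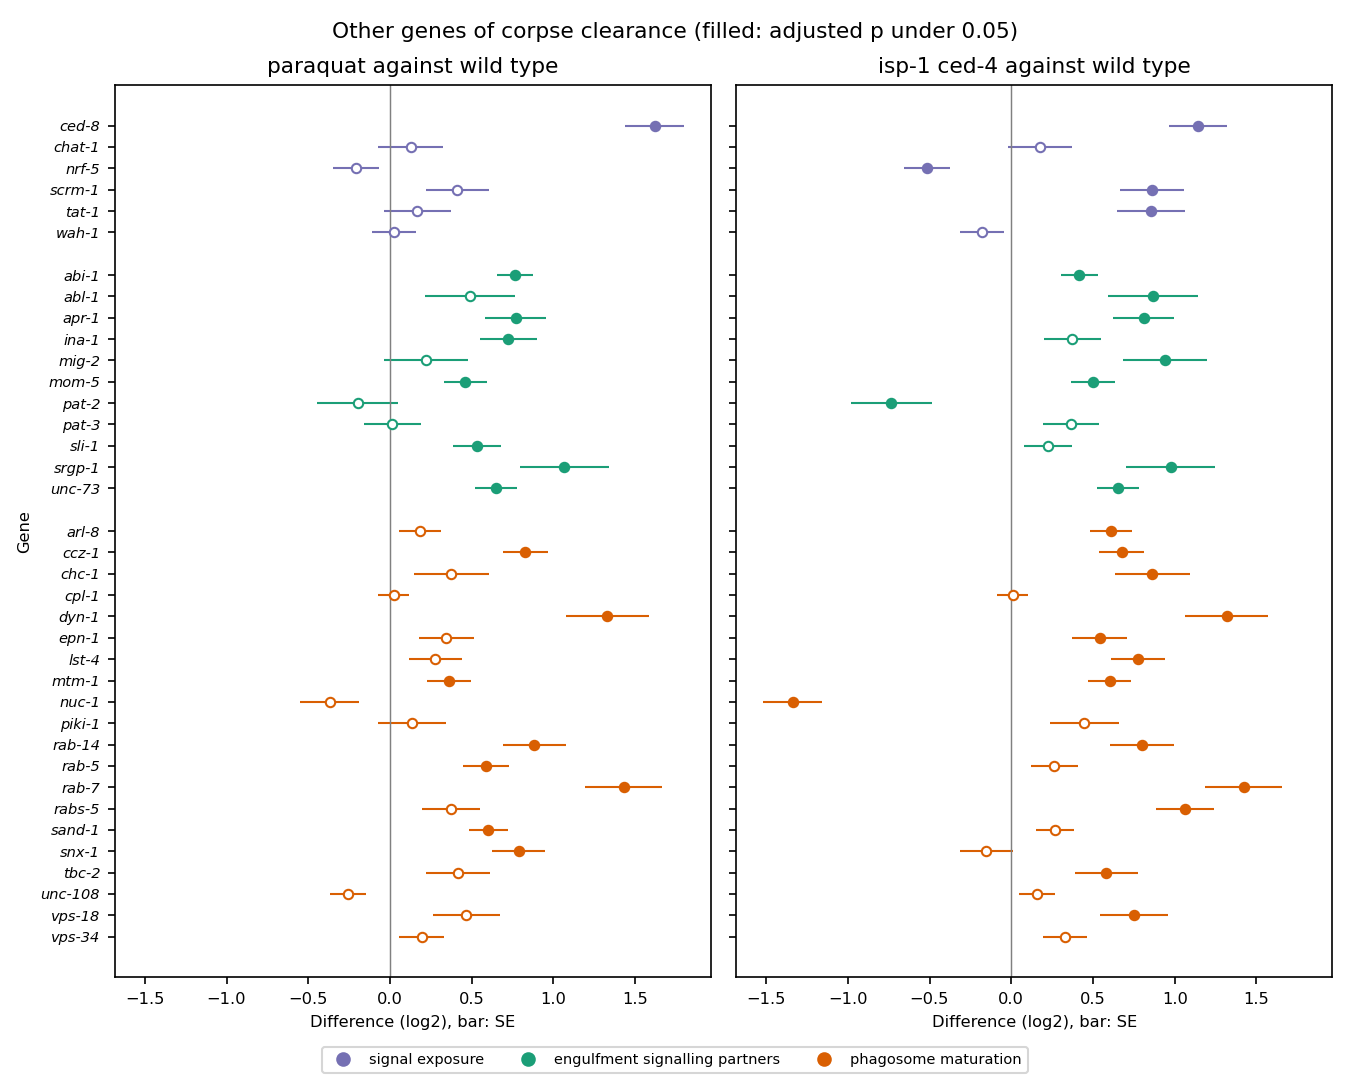
Difference in log2 expression (x axis, bars are standard errors) of the other corpse clearance genes (y axis), for paraquat and for isp-1 ced-4 against wild type, coloured by list and filled where the adjusted p was under 0.05. dyn-1 and rab-7 rose in both panels and nuc-1 fell in isp-1 ced-4.

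Markers of several other tissues moved in the same comparisons. In isp-1 ced-4 all 10 tested sperm markers fell against wild type, with a list mean of 3.61 to 5.53 on the isp-1 ced-4 arrays against 6.85 to 7.90 on the wild type arrays. Of 18 oocyte markers 16 rose, with list means of 11.42 to 11.67 against a wild type maximum of 11.18, and 5 of 7 body wall muscle markers fell. Of all tested genes 29.3% were called higher and 22.5% lower there. Of 5 tested somatic gonad markers, the list that holds sheath cell genes, none was called, at 6.18 to 6.35 in isp-1 ced-4 against 6.07 to 6.43 in wild type. Some of them were called against wild type in other groups. inx-8 (0.56) and inx-9 (0.57) were higher in paraquat, and inx-8 (0.62) in nuo-6. inx-8 (-0.43) and fos-1 (-1.05) were lower in ced-4. In nuo-6 ced-4, ceh-18 was higher (1.08) and fos-1 lower (-1.06). Between isp-1 ced-4 and ced-4, inx-8 was higher (0.55). In paraquat, where 2 engulfment genes rose, 10 of 10 sperm markers fell, with 16.2% of all tested genes called lower, and 17 of 18 oocyte markers rose. In ced-4 and nuo-6 ced-4, 10 of 11 molting and hypodermis markers rose against wild type. The shares of all tested genes called higher there were 7.02% and 15.4%. The list means were 5.90 to 6.06 and 6.19 to 6.31, against 3.06 to 3.59 in wild type and 3.28 to 3.63 in isp-1 ced-4. Comparisons with ced-4 therefore also differ in these genes. So do isp-1 ced-4 against nuo-6 ced-4, the isp-1 interaction and the difference of the ced-4 effects. The list means of wild type lay below the filter level of 3.68, so most of these markers passed the filter through the groups where they are high, and their count was favoured by the filter. Relative to nuo-6, 13 of 18 oocyte markers fell in the nuo-6 double mutant, with 16.6% of all tested genes called lower. The coelomocyte list had no tested gene. Their part in the results was not tested.

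**Figure D5:**
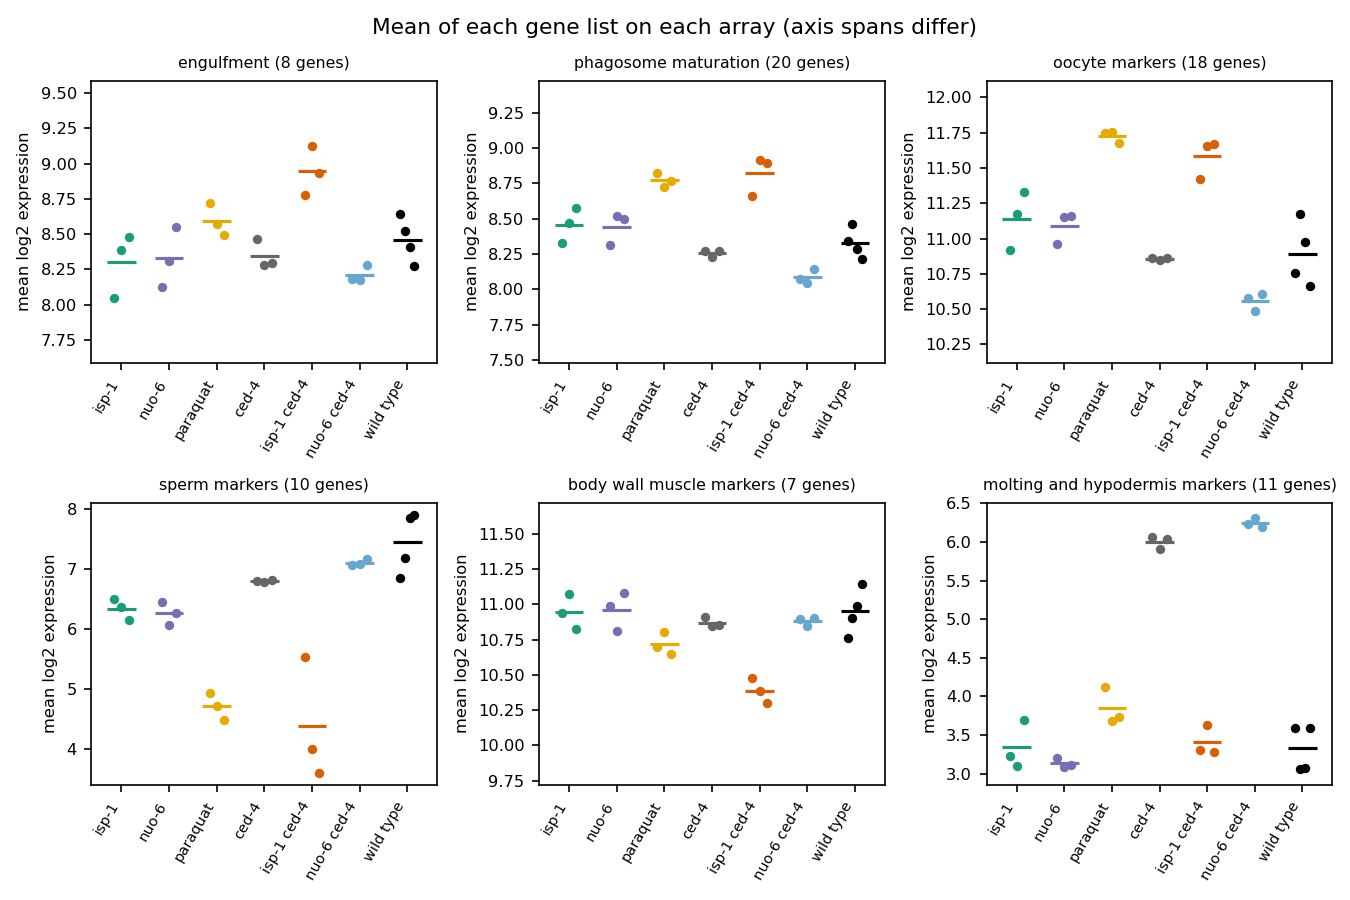
Mean log2 expression (y axis) over the tested genes of each list on each array, by group (x axis), with lines for group means. The engulfment mean is highest in isp-1 ced-4, where the oocyte mean is high and the sperm and muscle means are low.

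The mean over the 8 engulfment genes was 8.78, 9.13 and 8.94 on the isp-1 ced-4 arrays, against 8.64, 8.52, 8.41 and 8.28 on the wild type arrays. Replicate 1 of isp-1 ced-4, the lowest of its group here, was also the one with the highest sperm mean, 5.53. In paraquat, replicate 1 had both the highest engulfment mean, 8.72, and the highest sperm mean, 4.93. A link between these means was not tested. Across all 22 arrays the closest pair of engulfment genes was ced-1 and ced-6, with a Pearson correlation of 0.79, followed by ced-7 with ced-10 and ced-6 with ced-10 at 0.72. psr-1 ran between -0.41 with ced-12 and 0.29 with ced-10. These are descriptions over arrays that share groups and normalization.

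By the same measure, the tested genes most like each engulfment gene over the 22 arrays were ima-3 and T26A8.4 for ced-6 (both 0.93), lst-6 (0.93) and rskn-1 (0.92) for ced-7, and rheb-1 (0.86) and T26A8.4 (0.85) for ced-1. They were dcap-1 (0.89) and hrpf-2 (0.88) for ced-10, C17E4.10 (0.89) and zyg-11 (0.88) for ced-12, patr-1 (0.89) and ZK154.5 (0.88) for ced-2, and wrn-1 and vps-15 for ced-5 (both 0.90). For psr-1 they were dkc-1 and dph-5 (both 0.92).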

How the data were processed

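Expression was measured on 22 Affymetrix arrays. The deposited values are log2 expression made by the authors with GCRMA, per the submitters' processing notes; neither its settings nor whether the arrays were normalized in 1 run are stated in those notes. The log base was read from the range, 0.926 to 15.25. Arrays have no read depth, so their number limits the precision.

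Gene symbols came from the annotation of the platform and were brought up to date through entrez ID for 20701 of 20766 probe sets with 1 symbol. The 77 control probe sets were left out, and the filter kept 12639. limma 3.58.1 (R 4.3.3; lmFit, eBayes) was fitted to the 7 group means together, and tests were two-sided. Background shares are over 9647 tested genes of 17118. The steps were tested on simulated data.

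The members and lists were chosen with earlier results of these data known. Named genes were the members with all their probe sets, the 3 mutated genes, the 3 genes called in most comparisons of each pathway list, and the 2 genes most like each member. The comparison of the double mutants, the difference of the ced-4 effects and the fit without 3 arrays were added after the data were seen. Alternatives were other filters, cyclic loess, median centring, a replicate block, fits of the groups compared alone, eBayes with trend and robust options, any probe set of a gene, and leaving out each array. No coordinates or sequences are given.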

Additional observations from a re-analysis of the deposited data

Results flagged for a closer look

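Differences of effect between backgrounds met the rule for a closer look in 7 cases, each by the test of the difference itself. The isp-1 effect with ced-4 mutated minus that with ced-4 intact was 1.58 for ced-1, 1.45 for ced-6 and 1.12 for ced-10 on the log2 scale. The ced-4 effect in isp-1 minus that in nuo-6 was 1.25 for ced-1, 1.15 for ced-6, 1.13 for ced-7 and 1.34 for ced-10. With the other probe set of each gene the first of these differences was 0.86, 0.56 and 0.02, not called, and the second was 1.09 for ced-1 and 1.03 for ced-6, called, and 0.44 for ced-7 and -0.11 for ced-10, not called. The second value of ced-1, 1.25 (adjusted p = 0.0358 by limma) was not called without isp-1 replicate 1 (1.15) or 2 (1.26), nuo-6 replicate 2 (1.22) or 3 (0.93), isp-1 ced-4 replicate 2 (0.98), or nuo-6 ced-4 replicate 1 (1.17), 2 (1.29) or 3 (1.28). The isp-1 value of ced-1 was not called without ced-4 replicate 2 (1.35) or isp-1 ced-4 replicate 2 (1.31).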

How the results depend on the processing

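Of 60 called differences of engulfment probe sets, 60 kept their sign in every alternative and 26 were called in every one. Values below are counts of called engulfment genes, with the reported count in brackets. With cyclic loess there were 0 in paraquat against wild type (2), 1 in ced-4 against wild type (0), ced-6, lower, and 1 for nuo-6 ced-4 over nuo-6 (0), ced-5, higher, and nuo-6 ced-4 against wild type had 1 higher and 2 lower (0 and 2). With the replicate number as a block there were 0 in isp-1 against wild type (1), 0 in paraquat (2) and 1 in nuo-6 ced-4 against wild type (2). With group means taken out, the numbers paired few arrays: 12 of 63 same-numbered pairs correlated over 0.1 (median -0.0095), and 3 of 22 arrays matched their own number best. The highest were nuo-6 replicate 1 with isp-1 ced-4 replicate 1 (0.28) and with isp-1 replicate 1 (0.25). Whether some arrays shared a batch was not tested. Fitting the groups compared alone gave 0 in isp-1 (1), 0 in nuo-6 (1) and 0 in paraquat (2) against wild type, 2 for isp-1 ced-4 over isp-1 (7) and 2 in nuo-6 ced-4 against ced-4 (1). Leaving out wild type replicate 1, isp-1 replicate 1 and isp-1 ced-4 replicate 1 together, an alternative chosen after seeing the data, gave 0 in isp-1 (1), 1 in ced-4 (0) and 4 in its double mutant with nuo-6 (2) against wild type, and 1 in nuo-6 against isp-1 (0). Counting a gene called by any probe set gave 2 for nuo-6 ced-4 over nuo-6 (0). Leaving out 1 array at a time gave 0 to 1 in isp-1, 1 in nuo-6, 0 to 2 in paraquat, 0 to 1 in ced-4, 5 to 7 in isp-1 ced-4 and 1 to 3 in nuo-6 ced-4, all against wild type. It gave 3 to 7 for isp-1 ced-4 over isp-1, 3 to 6 against ced-4 and 3 to 7 against nuo-6 ced-4, and 0 to 1 for nuo-6 ced-4 over nuo-6 and against ced-4 and in nuo-6 against isp-1. The interactions gave 2 to 4 for isp-1 and 0 for nuo-6, and the difference of the ced-4 effects 3 to 5. Cyclic loess moved the median difference of all probe sets in isp-1 ced-4 against wild type to -0.02, from 0.12, and in paraquat to -0.02, from 0.13, and the split of called probe sets in isp-1 ced-4 to 2618 higher and 3208 lower, from 3693 and 2672. The causes were not tested. Levels near the background of the array, as for ttr-52, limit what can be seen.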
